A study of Mus musculus with 17 samples.

Results

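Receptors for neurotransmitters were followed in the retinal pigment epithelium (RPE), the pigmented monolayer behind the photoreceptors, as 86 of the 22253 genes in the count table. The genes were chosen by symbol. They comprised 26 glutamate receptor genes (AMPA, NMDA, kainate, delta and metabotropic), 12 GABA-A receptor subunits, 4 glycine receptor subunits, 12 serotonin receptors, 18 acetylcholine receptors (nicotinic and muscarinic) and 14 catecholamine receptors (adrenergic and dopamine). The serotonin-gated channel subunits Htr3a and Htr3b were left out.

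All cells came from Serpine3 GFP/+ mice at 2 months, which carry GFP on 1 allele of Serpine3, behind its start codon in exon 2, so that the Serpine3 locus drives the reporter and every group carried the same allele. GFP+-RPE pools (GFP+, n = 6) and GFP--RPE pools from the peripheral part of the eyecup (ctrl periphery, n = 5) and from its central part (ctrl center, n = 6) were compared, to ask how the reporter-marked peripheral cells differ from their neighbours and from central RPE. Each SMART-Seq library held 10 to 15 hand-picked cells by the labels, while the study's methods give lower numbers, which overlap these. The 17 libraries came from 7 mouse labels, of which mouse 1 names 2 animals, and most mice gave 1 pool to each group.

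Neurotransmitter receptors fall into ligand-gated channels, which open directly when the transmitter binds and are built from several subunits, and G protein-coupled receptors, which signal through intracellular second messengers. GABA and glycine receptors of the channel type pass chloride, whereas ionotropic glutamate and nicotinic acetylcholine receptors pass cations. RPE cells are not neurons, but they face the photoreceptors across the subretinal space and are known to answer adrenergic, purinergic and other transmitter signals with changes in ion and fluid transport.

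Library totals ranged from 9896118 to 22467079 counts. Serpine3 had 107 to 576 counts in the GFP+ libraries, 0 to 5 in ctrl periphery and 0 in all ctrl center libraries. The RPE list (12 markers, 11 of them detected in each group) summed to 49267 to 100223 CPM (read counts scaled by library size), with Best1 at 3 counts or fewer everywhere. Of the retinal neurons that normally carry many of these receptors, the photoreceptor list summed to 17.2 to 129 CPM over all libraries. The amacrine, horizontal and ganglion cell list summed to 73.3 to 238 CPM, with Slc6a9 at 19.6 to 204 CPM and Tfap2a at 2.99 to 157 CPM, whereas Gad1 and Pou4f2 were at 3 counts or fewer in every library. The bipolar cell list, which holds Otx2, a gene that RPE also expresses, summed to 485 to 920 CPM. Its member Trpm1 had 7.32 to 47.2 CPM in GFP+, 0.0794 to 33.3 in ctrl periphery and 0 to 0.554 in ctrl center. The study reports a Trpm1 pathway as expressed mostly in GFP+-RPE. Prkca was at up to 36.2 CPM, whereas Cabp5 and Grm6 were at 3 counts or fewer in every library. The part of such cells in the receptor levels was not tested. The mitochondrial share of counts was 0.710% to 17.2% in GFP+, 12.5% to 30.4% in ctrl periphery and 13.7% to 47.3% in ctrl center. The central library of mouse 5 stood apart, with the highest mitochondrial share and only 6309 genes over 3 counts.

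Many of the receptor genes were silent or nearly so at this depth. Of the 86, 39 had at most 3 counts in any library (45.3%, against 31.5% of all genes), and 9 of these had no count at all. Only 7 exceeded 3 counts in all 17 libraries (8.14%, against 15.7% of all genes), among them Adra2c, Gabrb1, Grik4, Gabra2, Chrna1 and Grin2a. A count of 0 allows a level of up to 3 counts, which is 0.116 CPM in the GFP+ library of mouse 1 and 0.554 CPM in the central library of mouse 5. The other libraries lie between, and this covers counting error only. Over 3 counts in at least 1 library were 17 of 26 glutamate, 10 of 12 GABA, 12 of 18 acetylcholine, 7 of 14 catecholamine, 1 of 12 serotonin and 0 of 4 glycine receptor genes. A single library held 12 to 19 detected receptor genes in GFP+ (median 16), 19 to 22 in ctrl periphery (median 21) and 15 to 30 in ctrl center (median 19).

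**Figure D1:**
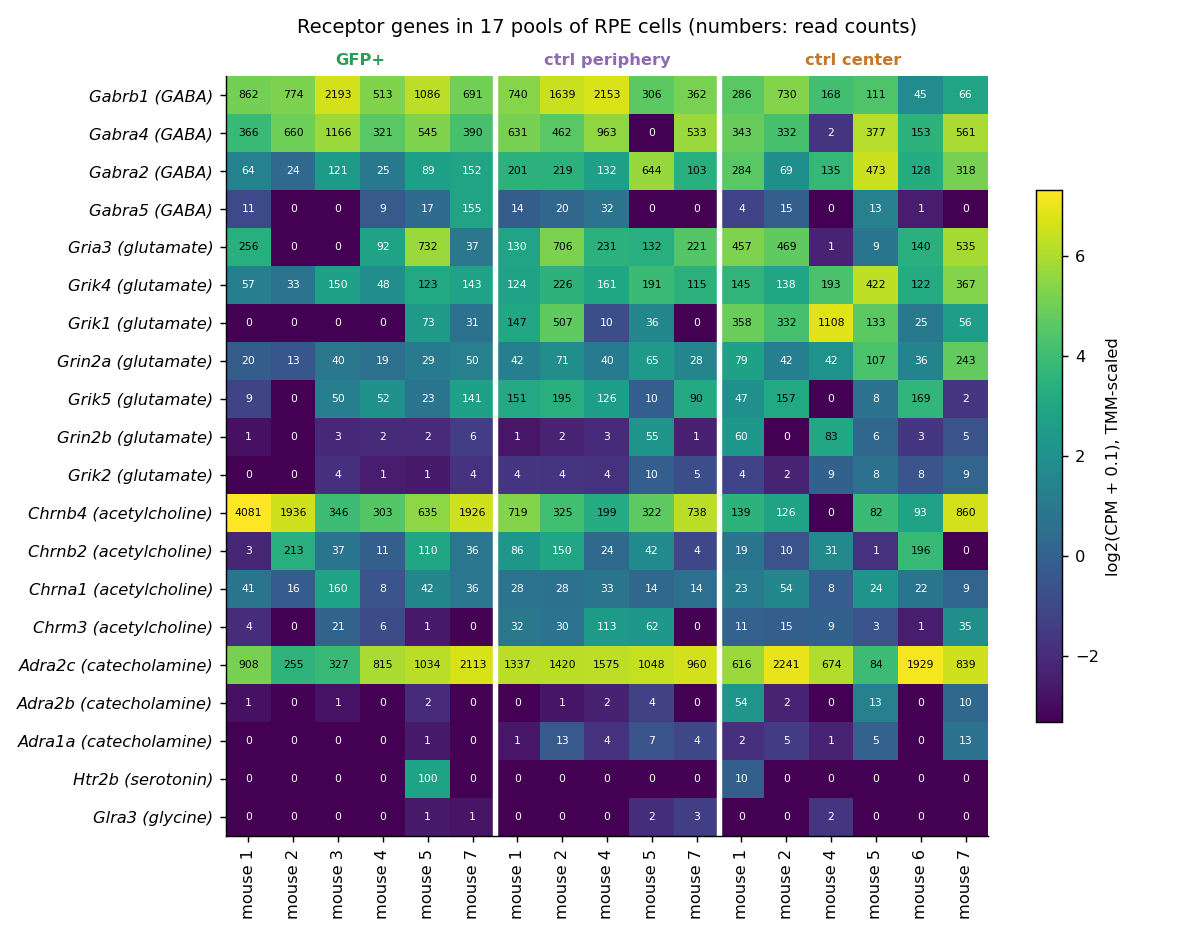
Read counts of 20 receptor genes that were tested, led their transmitter group or passed an adjusted p of 0.05 by either tool (rows) in each of the 17 libraries (columns, by group and mouse), coloured by log2(CPM + 0.1). Adra2c, Gabrb1 and Chrnb4 are among the brightest rows, whereas Htr2b is filled in 2 libraries and Glra3 never passes 3 counts.

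To compare levels between genes, CPM was divided by the length of the exons in kilobases. On this scale Adra2c ranked first, at 14.4 ± 10.2 CPM per kb in GFP+ (SD, n = 6), 23.3 ± 2.60 in ctrl periphery (n = 5) and 24.0 ± 13.8 in ctrl center (n = 6). Chrnb4 was also high, at 19.0 ± 14.5 CPM per kb in GFP+, 8.86 ± 6.73 in ctrl periphery and 6.09 ± 9.66 in ctrl center. Gabra4, Gabrb1, Grik4, Gabra2, Grik1 and Gria3 were lower, with means over the 17 libraries from 5.10 down to 1.75 CPM per kb. Within a library Adra2c was above Chrnb4 per kb in 4 of 6 GFP+, 5 of 5 ctrl periphery and 6 of 6 ctrl center libraries, although in the central pool of mouse 7 the levels were close.

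**Figure D2:**
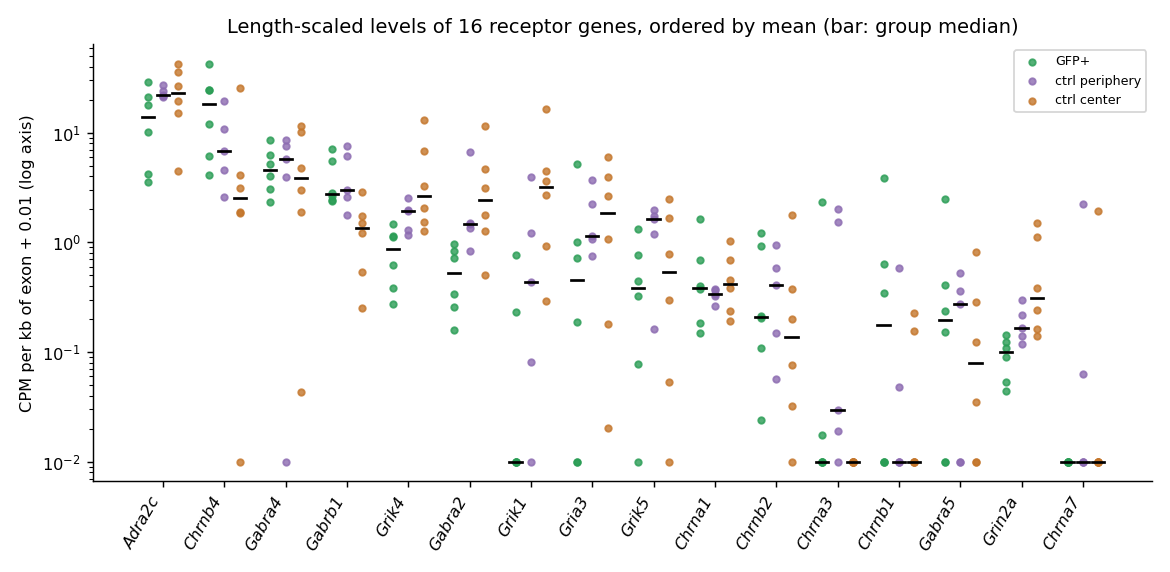
Levels of 16 receptor genes in the order of their mean per length, as CPM per kb of exon plus 0.01 on a log axis. Points are libraries, coloured by group, and black bars are group medians. Adra2c is high in all 17 libraries, whereas points at the bottom of the axis are libraries with no count, as for Grik1 in 4 GFP+ libraries.

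The largest summed level belonged to GABA receptors. Gabrb1 encodes a beta subunit, which with alpha subunits forms the GABA-binding sites of the GABA-A channel. Gabrb1 (chr5:71658113-72149037, plus strand, GENCODE M21 on GRCm38) had 33.0, 37.7 and 97.5 CPM in GFP+ (lowest, median and highest), against 3.37, 18.6 and 40.1 CPM in ctrl center. The ctrl periphery pools had 41.2, 84.9, 104, 24.3 and 35.8 CPM in mice 1, 2, 4, 5 and 7. Both peripheral groups were thus mostly above the central one, in 4 of 5 shared mice for GFP+ and in 5 of 5 for ctrl periphery, yet 1 central library reached into the peripheral ranges.

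Among the alpha subunits, Gabra4 ranged from 14.2 to 51.8 CPM in GFP+, from 0 to 52.7 in ctrl periphery and from 0.200 to 69.7 in ctrl center. Its near-empty libraries were those of mouse 5 in ctrl periphery, with 0 counts, and of mouse 4 in ctrl center, with 2 counts, whereas Gabrb1 had 306 and 168 counts there. Gabra2 ran the other way from Gabrb1, with 1.14, 3.93 and 7.25 CPM in GFP+ and 3.79, 18.7 and 87.4 CPM in ctrl center (lowest, median and highest). In ctrl periphery it had 11.2, 11.3, 6.35, 51.2 and 10.2 CPM in mice 1, 2, 4, 5 and 7. It was lower in GFP+ than in either control pool of the same mouse in 5 of 5 mice, although the range of GFP+ overlapped that of each control group.

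Gabra5 was patchy, with 0 to 155 counts in GFP+, 0 to 32 in ctrl periphery and 0 to 15 in ctrl center. The gamma subunits, which complete the common synaptic GABA-A channel and its benzodiazepine site, were sparse. Gabrg1 had 233 counts in the central library of mouse 1 and at most 3 elsewhere, and Gabrg3 reached 42 counts in 1 GFP+ library and 31 in 1 central library, with at most 6 elsewhere. Gabrb2, another beta subunit, did not exceed 3 counts. Outside the members, the rho subunit gene Gabrr2 exceeded 3 counts in 5 of 6 GFP+, 2 of 5 ctrl periphery and 2 of 6 ctrl center libraries. For the G protein-coupled GABA-B receptor, an obligate dimer, Gabbr1 was detected in all 17 libraries, at 11.9 ± 11.3 CPM in GFP+, 24.9 ± 6.96 in ctrl periphery and 31.5 ± 23.3 in ctrl center (SD), whereas its partner Gabbr2 had at most 1 count. Gabrr2 and the GABA-B genes were singled out after their values were seen.

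Gabra4 and Gabrb1 lie head to head on chromosome 5, and their first exons share bases on opposite strands. In the RefSeq annotation (GRCm38.p6) the start of Gabra4 lies inside Gabrb1 and the genes share 388 bases. The windows around both starts (250 bases before and 50 after) are shown because reads from the shared stretch cannot be assigned to 1 of the genes unless counting used strand, which was not stated. Capitals mark the first 50 transcribed bases.
Gabra4 (chr5:71658259-71658558, minus strand): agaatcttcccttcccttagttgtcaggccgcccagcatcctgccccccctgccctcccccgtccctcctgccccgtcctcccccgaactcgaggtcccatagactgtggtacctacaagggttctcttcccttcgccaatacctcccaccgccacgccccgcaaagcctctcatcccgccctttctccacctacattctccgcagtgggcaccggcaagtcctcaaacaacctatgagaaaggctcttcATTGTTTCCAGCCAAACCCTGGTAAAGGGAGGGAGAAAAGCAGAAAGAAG
Gabrb1 (chr5:71657671-71657970, plus strand): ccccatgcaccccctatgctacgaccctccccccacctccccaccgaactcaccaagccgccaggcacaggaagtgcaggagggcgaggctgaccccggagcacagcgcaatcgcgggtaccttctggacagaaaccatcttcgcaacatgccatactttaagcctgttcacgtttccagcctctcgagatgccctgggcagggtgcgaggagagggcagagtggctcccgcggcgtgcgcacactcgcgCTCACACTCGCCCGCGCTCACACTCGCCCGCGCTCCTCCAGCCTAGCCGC
The exons of Gabra4 and Gabrb1 comprise 6083 and 13838 bases in GENCODE M21. In the libraries where Gabra4 had 0 and 2 counts Gabrb1 had 306 and 168. The part of the shared stretch in the counts of either gene was not tested.

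Glutamate receptor genes were sparse in GFP+-RPE. The highest by CPM was Gria3, an AMPA subunit on the X chromosome, with 0 counts in 2 GFP+ libraries and 732 in another. Its values were 0, 4.35 and 51.5 CPM in GFP+ (lowest, median and highest) and 0.0998, 18.1 and 59.3 CPM in ctrl center, so the groups spanned nearly the same range. The other AMPA subunits, Gria1, Gria2 and Gria4, exceeded 3 counts only in 1 ctrl center library each.

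The kainate subunits were more regular. Grik4, a high-affinity subunit that needs Grik1, Grik2 or Grik3 to form a channel, had 1.57, 5.14 and 8.66 CPM in GFP+ and 7.59, 15.7 and 78.0 CPM in ctrl center (lowest, median and highest). Peripheral controls had 6.91, 11.7, 7.75, 15.2 and 11.4 CPM in mice 1, 2, 4, 5 and 7. Its GFP+ values were below both controls of the same mouse in 5 of 5 mice, and 1 GFP+ library, at 8.66 CPM, exceeded the lowest central one.

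Grik1, a subunit that can form channels alone, had 0 counts in 4 of 6 GFP+ libraries and 73 and 31 counts in the other two. It had 25 to 1108 counts in ctrl center, where every library exceeded 3 counts, and 147, 507, 10, 36 and 0 counts in ctrl periphery (mice 1, 2, 4, 5 and 7). Grik5, the second high-affinity subunit, had medians of 1.92, 8.41 and 2.72 CPM in GFP+, ctrl periphery and ctrl center, with libraries at 0 in the first and last. Grik2 stayed at or under 10 counts in every library, with 0 to 4 counts in GFP+ and 4 to 10 in ctrl periphery.

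Of the NMDA receptor genes, Grin2a, a glutamate-binding regulatory subunit, was detected in all 17 libraries at 0.617, 1.61 and 2.38 CPM in GFP+ and 2.31, 5.42 and 26.9 CPM in ctrl center (lowest, median and highest). The ctrl periphery values were 2.34, 3.68, 1.93, 5.16 and 2.77 CPM in mice 1, 2, 4, 5 and 7. Again GFP+ was below both controls of the same mouse in 5 of 5 mice. Grin1, the subunit without which NMDA channels do not assemble, had 1 count in each of 2 libraries and 0 in the other 15. Grin2b had up to 83 counts in ctrl center, 55 in 1 peripheral control and at most 6 in GFP+.

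Among the metabotropic receptors, Grm5 had at most 5 counts in any library, and Grm6, the receptor of ON bipolar cells, at most 1.

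**Figure D3:**
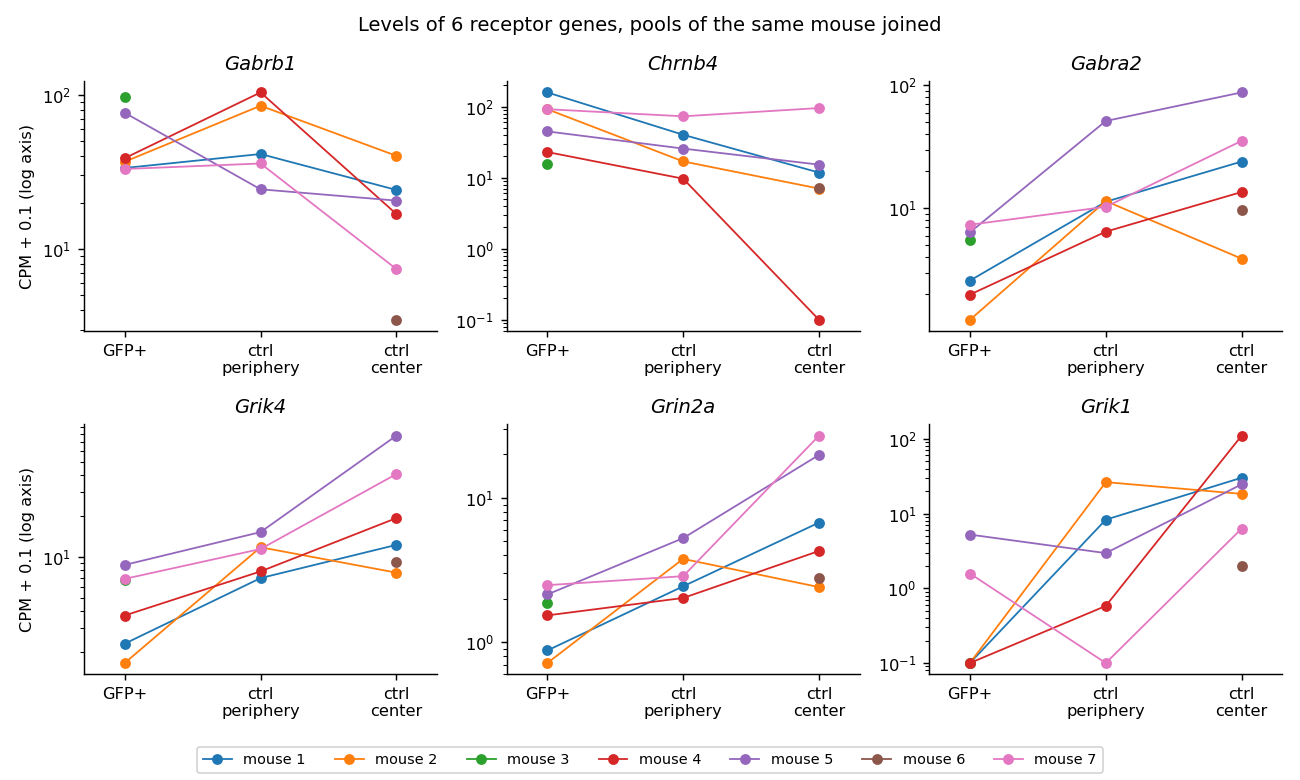
CPM plus 0.1 on log axes of 6 receptor genes in each library, with the pools of 1 mouse joined by a line across GFP+, ctrl periphery and ctrl center. Gabra2, Grik4 and Grin2a are lowest in the GFP+ pool of all 5 mice that gave every group, Grik1 is lower in GFP+ than in ctrl center in all 5, Gabrb1 is lower in ctrl center than in ctrl periphery in all 5, and Chrnb4 is higher in GFP+ than in ctrl periphery in all 5.

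Among acetylcholine receptors, Chrnb4 stood alone. It encodes a beta subunit of the ganglionic nicotinic channel and lies on chromosome 9 (chr9:55028154-55048779, minus strand) in a cluster with Chrna3 and Chrna5. In GFP+ it had 15.4, 68.3 and 158 CPM, with 303 to 4081 counts, against 0, 9.34 and 95.3 CPM in ctrl center (lowest, median and highest). In ctrl periphery it had 40.1, 16.8, 9.58, 25.6 and 73.0 CPM in mice 1, 2, 4, 5 and 7. It was higher in GFP+ than in ctrl periphery in 5 of 5 mice and higher than in ctrl center in 4 of 5, the exception being mouse 7, whose central pool at 860 counts was far above the other central pools at 0 to 139.

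The alpha subunit genes of the Chrnb4 cluster, Chrna3 and Chrna5, were found in few libraries. Chrna3, the usual partner of Chrnb4, had 260 counts in the GFP+ library of mouse 2, 188 and 100 in the peripheral controls of mice 1 and 5, at most 2 in the other peripheral libraries and 0 in all ctrl center libraries. Chrna5 exceeded 3 counts in 1 central library. Chrna1, the muscle-type alpha subunit, was detected in all 17 libraries at 0.604 to 7.11 CPM. Chrnb2, the beta subunit of most brain nicotinic channels, had medians of 1.68, 3.34 and 1.07 CPM in GFP+, ctrl periphery and ctrl center, and part of its exons overlaps Adar on the other strand. Chrnb1 reached 204 counts in a GFP+ library and was at 3 counts or fewer in 3 of 6 of that group. Of the muscarinic receptors, Chrm3 had 0 to 21 counts in GFP+, 1 to 35 in ctrl center and 32, 30, 113, 62 and 0 in ctrl periphery (mice 1, 2, 4, 5 and 7). Ric3, a chaperone of nicotinic receptors, was present in all 17 libraries at 21.5 ± 9.86 CPM in GFP+, 27.7 ± 14.6 in ctrl periphery and 43.5 ± 36.1 in ctrl center.

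Adra2c, the alpha-2C adrenergic receptor, which inhibits adenylyl cyclase, made up nearly all of the catecholamine signal. It had 12.1, 48.4 and 101 CPM in GFP+ and 15.5, 80.1 and 145 CPM in ctrl center (lowest, median and highest). In ctrl periphery it was even, at 74.5, 73.6, 75.8, 83.2 and 94.9 CPM in mice 1, 2, 4, 5 and 7. The GFP+ pools of mice 2 and 3 were the lowest of the 3 groups, at 12.1 and 14.5 CPM, while the GFP+ pool of mouse 7 exceeded every peripheral control. Adra2b reached 54 counts in ctrl center and at most 4 in the peripheral groups, and Adra1a had 1 count over all GFP+ libraries, 1 to 13 in ctrl periphery and 0 to 13 in ctrl center. Of the dopamine receptors, Drd4 had 103 counts in the peripheral control of mouse 5, 13 in the central pool of mouse 5 and at most 1 elsewhere, and the others had at most 7 counts in any library.

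Start windows of 61 of the 86 receptor genes were found in RefSeq (GRCm38.p6) and searched on both strands for 3 motifs that RPE transcription factors are known to bind, namely CACGTG and TCATGTG (bound by MITF) and TAATCC (bound by OTX2). CACGTG was in 4 of 73 windows of receptor genes (5.48%, against 7.15% of all windows), TCATGTG in 0 (against 3.77%) and TAATCC in 3 (4.11%, against 7.06%). These are matches of letters and not shown to be binding sites. The windows of Adra2c and Gabra2 are given, as abundant members with a match, with the motif in capitals.
Adra2c (chr5:35278316-35278615, plus strand, CACGTG): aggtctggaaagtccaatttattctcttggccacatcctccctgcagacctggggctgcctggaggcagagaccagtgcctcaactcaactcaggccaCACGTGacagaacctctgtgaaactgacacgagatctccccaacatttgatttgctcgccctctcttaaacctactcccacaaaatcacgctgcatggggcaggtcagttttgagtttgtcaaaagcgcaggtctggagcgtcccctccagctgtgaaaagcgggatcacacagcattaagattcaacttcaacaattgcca
Gabra2 (chr5:71095800-71096099, minus strand, TAATCC): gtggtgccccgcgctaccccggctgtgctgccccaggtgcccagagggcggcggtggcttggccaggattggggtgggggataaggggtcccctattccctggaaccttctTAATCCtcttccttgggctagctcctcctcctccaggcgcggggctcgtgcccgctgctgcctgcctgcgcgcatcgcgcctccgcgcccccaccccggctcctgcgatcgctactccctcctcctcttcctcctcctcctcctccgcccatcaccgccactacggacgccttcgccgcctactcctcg
Adra2c is a gene of 1 exon, and Gabra2 lies beside Gabra4 and Gabrb1 in the same GABA-A cluster.

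Serotonin and glycine receptors were almost undetected. Htr2b, the only serotonin receptor over 3 counts, had 100 counts in the GFP+ library of mouse 5, 10 in the central library of mouse 1 and 0 in the other 15, and its exons overlap Psmd1 on the other strand. Glra3 had at most 3 counts in any library, and no glycine receptor gene exceeded that.

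Several receptor genes were high in 1 or 2 libraries and near 0 in the rest. Of 31 receptor genes with at least 50 counts in some library, 10 reached 10 counts in no more than 2 libraries (32.3%, against 1162 of 12447 such genes in the table, 9.34%). Among them were Chrm1, Chrna4, Chrna7, Drd4, Gabrg1, Grin2d and Htr2b. Of the sparser genes, Adra1b reached 60 counts, Chrm2 39, Grin3b 25, Gabra3 22, Drd1 7, Chrnb3 5, Grm5 5 and Grid1 4 in their highest library. The central library of mouse 1 held 30 detected receptor genes, and 5 of them, Chrna5, Gabrg1 and Gria1 included, exceeded 3 counts in that library alone. In pools of 10 to 15 cells, expression in few cells and fewer transcripts per cell cannot be told apart.

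Summed over each transmitter, the levels are given here as descriptions without a test. GABA receptors summed to 177 ± 48.8 CPM in GFP+, 242 ± 36.1 in ctrl periphery and 187 ± 82.3 in ctrl center (SD), and were the largest sum in each group. Glutamate receptors summed to 22.5 ± 24.2 CPM in GFP+, 51.2 ± 24.3 in ctrl periphery and 107 ± 47.0 in ctrl center. In 5 of 6 GFP+ libraries the glutamate sum was at most 20.1 CPM, below every control library, and the GFP+ library of mouse 5 reached 70.3 CPM through Gria3. Acetylcholine receptors ran in the opposite order, with 82.1 ± 54.8, 47.6 ± 26.5 and 34.2 ± 34.6 CPM. That order was carried by Chrnb4, without which the sums were 11.3, 14.6 and 11.6 CPM, and the central mean was 20.9 CPM without the pool of mouse 7. Catecholamine receptors summed to 50.2 ± 35.7, 84.7 ± 10.3 and 85.0 ± 45.6 CPM.

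As a share of all receptor CPM in a library, GABA receptors held 54.0% ± 14.7 in GFP+, 56.9% ± 8.47 in ctrl periphery and 43.9% ± 14.1 in ctrl center. Glutamate receptors held 6.14% ± 5.42, 11.9% ± 5.23 and 25.2% ± 9.59, and acetylcholine receptors 24.9% ± 17.3, 11.3% ± 6.41 and 8.01% ± 6.87. The share of kainate receptors alone was 2.50% ± 1.47 in GFP+ and 15.8% ± 10.7 in ctrl center.

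**Figure D4:**
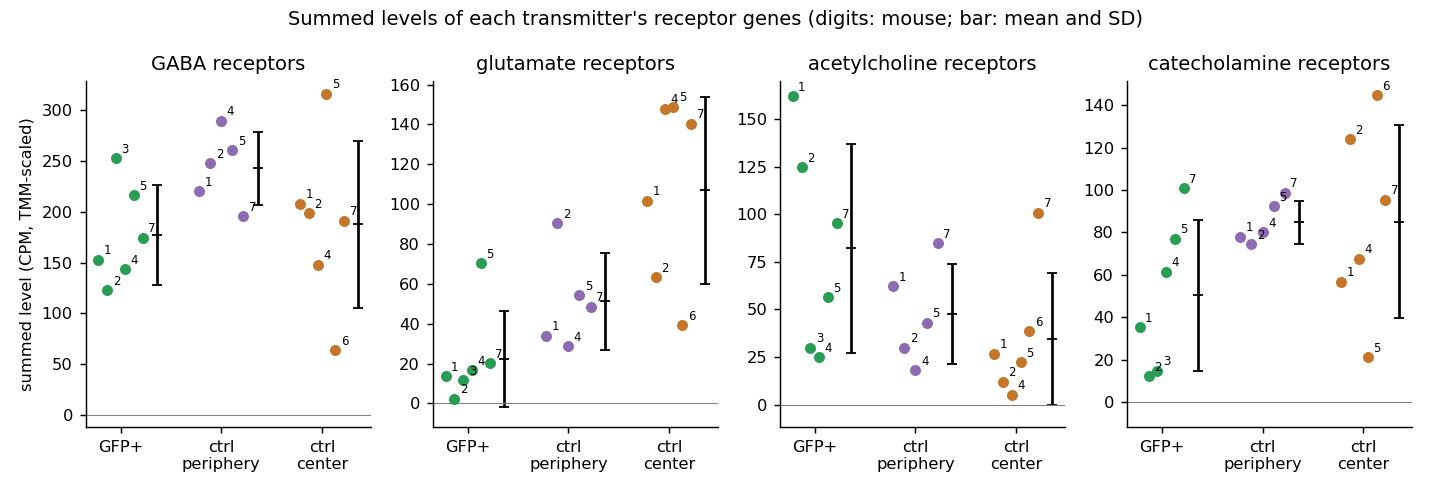
Summed CPM of the GABA, glutamate, acetylcholine and catecholamine receptor genes in each library, on linear axes. Points are libraries, numbered by mouse, and black bars are group means with SD. Glutamate sums are below 21 CPM in 5 of 6 GFP+ libraries, and acetylcholine sums are highest in the GFP+ pools of mice 1 and 2.

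The comparison of GFP+ with ctrl center asked how reporter-marked peripheral RPE differs from central RPE. All 5 tested glutamate receptor genes were lower in GFP+, from -4.92 to -0.89 in log2 fold change with a median of -2.67. The 3 tested acetylcholine receptor genes were higher, between 0.06 and 1.54 (by DESeq2, with sparser genes, 4 of 8 were lower). The direction of 2 of these 3 was not stable, since Chrna1 turned lower in 6 of 19 alternatives and Chrnb2 in 5 of 19. Of the 4 tested GABA genes Gabrb1 was higher and 3 were lower, Gabra2 and Gabra4 among them. None passed the limits of edgeR's quasi-likelihood test (an adjusted p below 0.01 together with a log2 fold change beyond 1 in either direction): 0 of 13 tested receptor genes were called, where 0.0431% of all 9286 tested genes were. The median log2 fold change was -0.77 over the 13 receptor genes and 0.00 over all genes, with 9 of 13 lower.

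At an unadjusted p under 0.05, 4 receptor genes were lower (3.66% of all genes were) and 0 higher (2.14% of all genes). They were Gabra2 (log2 fold change -3.02 ± 1.03 SE, edgeR adjusted p = 0.391), Grik1 (-4.92 ± 1.79, edgeR adjusted p = 0.485), Grik4 (-2.67 ± 0.98, edgeR adjusted p = 0.496) and Grin2a (-2.93 ± 1.21, edgeR adjusted p = 0.685). Each was lower in 5 of 5 mice. In the exact permutation test of mean CPM (two-sided), Grik1, Grik4 and Grin2a each had p = 0.00433, which became 0.184 after adjustment over all genes tested. Gabrb1 (1.40 ± 0.67, edgeR adjusted p = 0.856) and Chrnb4 (1.54 ± 1.02, edgeR adjusted p = 1.00) were the largest differences upward.

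DESeq2, which also tested sparser genes, called 3 of 34 receptor genes at the same limits, where 1.62% of 12442 genes were called. All 3 were lower in GFP+, among them Grin2a (log2 fold change -2.97 ± 0.76, DESeq2 adjusted p = 0.00727) and Gabra2 (-3.07 ± 0.81, DESeq2 adjusted p = 0.00986). Of the 34, 28 were lower in GFP+, among them all 15 tested glutamate receptor genes, and their median was -2.86, against -0.05 and 51.8% lower over all genes. Between adjusted p of 0.01 and 0.05 by DESeq2 were Grik4, Grin2b, Adra1a, Adra2b and Grik2, also lower in GFP+.

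The calls depended on single libraries. Without the central library of mouse 5, DESeq2 called 0 receptor genes, and Grin2a and Gabra2 had adjusted p of 0.0301 and 0.0585, with log2 fold changes of -2.58 and -2.15. Leaving out the GFP+ pool of mouse 1, 2, 4 or 7 or the central pool of mouse 7 also left 0 calls, leaving out the GFP+ pool of mouse 3 or the central pool of mouse 1 left 1, leaving out the GFP+ pool of mouse 5 left 2, and leaving out the central pool of mouse 2 gave 6. Among these 12 fits, Grin2a and Gabra2 themselves were called only without the central pool of mouse 2, 4 or 6, and both lost the call in the other 9, with DESeq2 adjusted p of up to 0.0352 and 0.0585. All log2 fold changes of the 8 receptor genes with a DESeq2 adjusted p under 0.05 stayed negative in these fits.

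Library quality moved with Grik4 and Grin2a, but not with all of these genes. Grin2b had 6 and 5 counts in the central pools of mice 5 and 7, against 83 and 60 in those of mice 4 and 1. The central pools of mice 5 and 7, with the highest mitochondrial shares (47.3% and 37.0%), had the highest Grik4 and Grin2a levels, and the GFP+ pools of mice 2 and 1, with the lowest shares (0.710% and 3.25%), had the lowest Grik4 and Grin2a levels. The same central pools of mice 5 and 7 had the highest levels of the rod gene Pde6a (127 and 65.6 CPM) and of Tfap2a, which amacrine and horizontal cells express (157 and 70.4 CPM). Other genes of the same marker lists were low in these pools. Gnat2 had 0 and 0.111 CPM there, against 64.6 CPM in the central pool of mouse 4 and 0 in that of mouse 6. Slc6a9 had 19.6 and 49.9 CPM, below all other central pools. Pde6a was 1.33 to 10.6 CPM in GFP+ and 9.64 to 16.4 in ctrl periphery, and Tfap2a 2.99 to 15.3 and 12.9 to 32.1. The photoreceptor list summed to 23.8 to 71.2 CPM in GFP+, 32.2 to 66.5 in ctrl periphery and 17.2 to 129 in ctrl center, and the amacrine, horizontal and ganglion cell list to 73.3 to 186, 85.9 to 238 and 94.1 to 212. Gene length moved with the receptor differences as well. Of the tested receptor genes 6 span over 200 kb (among them Gabrb1, Gria3, Grik1, Grik4 and Grin2a), and 5 of these 6 were lower in GFP+ than in ctrl center with a median of -1.87. All 416 tested genes of that span had a median of -0.15, and those up to 50 kb had 0.01. The part of mitochondrial share, of other retinal cells and of gene span in the receptor differences was not tested.

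The comparison of GFP+ with ctrl periphery set GFP+ cells against their GFP- neighbours. The same direction held for all 5 tested glutamate receptor genes, from -2.79 to -0.57, in a comparison that shares its GFP+ libraries with the previous one. Chrnb4 was higher in GFP+ in 5 of 5 mice, and Adra2c lower in 4 of 5. edgeR called 0 of 15 receptor genes (0.0396% of 10102 genes were called), and DESeq2 called 0 of 22 (0.571% of 11744). The median log2 fold change was -0.60 over the 15 receptor genes and 0.01 over all genes, with 11 of 15 lower.

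At an unadjusted p under 0.05 by edgeR, 3 receptor genes were lower in GFP+ (2.83% of all genes) and 0 higher (2.75%). Among them were Gabra2 (-2.18 ± 0.94 SE, edgeR adjusted p = 0.822) and Chrm3 (-3.31 ± 1.54, edgeR adjusted p = 0.892). Chrnb4 had a log2 fold change of 1.13 ± 0.61 (edgeR adjusted p = 0.954), and 1.39 once the mouse entered as a replicate block (edgeR adjusted p = 0.528). Chrm3 was higher in ctrl periphery than in GFP+ in 4 of 5 mice.

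The comparison of ctrl periphery with ctrl center, both GFP-, compared position among GFP- cells. Gabrb1 was higher in ctrl periphery in 5 of 5 mice, with a log2 fold change of 1.54 ± 0.76 (edgeR adjusted p = 1.00). Grik1 (-2.13 ± 1.42), Grin2a (-1.81 ± 1.32) and Grik4 (-1.52 ± 0.98) were lower in ctrl periphery, each with an edgeR adjusted p of 1.00. edgeR called 0 of 16 receptor genes (0.0% of 9535 genes), with 0 at an unadjusted p under 0.05 in either direction (1.03% of all genes higher and 1.67% lower), and DESeq2 called 0 of 24 (0.258% of 11232). The median over the 16 was -0.11, with 7 higher and 9 lower.

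In none of the 3 comparisons did a receptor gene tested by edgeR have group ranges that did not overlap (1.13%, 1.29% and 0.755% of all genes tested by edgeR did, in the order given). Of the sparser receptor genes, Gria2 was lower without overlap in GFP+ than in ctrl center, and Grik2 in GFP+ than in ctrl periphery. These 2 genes had at most 6 and 10 counts in any library. The biological coefficient of variation between pools (edgeR) was 1.22, 1.07 and 1.29 in the same order.

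**Figure D5:**
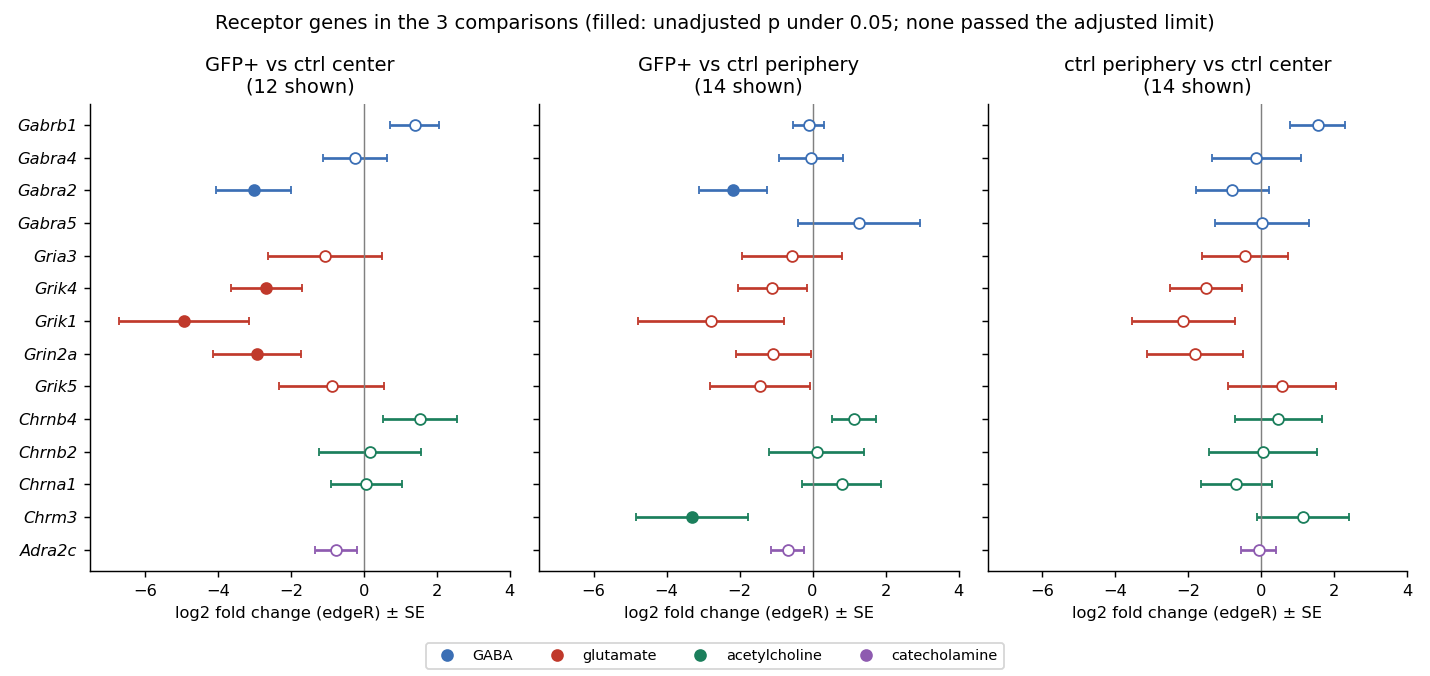
Log2 fold change with its standard error (edgeR) of tested receptor genes in GFP+ against ctrl center (12 genes shown), GFP+ against ctrl periphery (14 shown) and ctrl periphery against ctrl center (14 shown). Filled points have an unadjusted p under 0.05, of which 4, 2 and 0 are shown. All glutamate receptor genes (red) lie left of zero in the first 2 panels.

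Genes that act with the receptors were read from 3 lists. Of all genes tested by edgeR, 5.80%, 5.58% and 2.70% had an unadjusted p under 0.05 in either direction in GFP+ against ctrl center, GFP+ against ctrl periphery and ctrl periphery against ctrl center, the order used for the lists as well. Of 46 partners (auxiliary subunits, scaffolds and subunits outside the members), edgeR called 0 in any comparison, with 17, 19 and 20 tested and 2, 2 and 1 at an unadjusted p under 0.05 (0.0431%, 0.0396% and 0.0% of all genes were called). DESeq2 called 2 of 24, 0 of 22 and 1 of 23 (1.62%, 0.571% and 0.258% of all genes). By DESeq2, Dlg2, a postsynaptic scaffold, was higher in GFP+ than in ctrl center (8.29 ± 7.19 against 1.03 ± 0.993 CPM, DESeq2 log2 fold change 2.97) and Homer2, a scaffold of metabotropic glutamate receptors, was lower (0.00795 ± 0.0195 against 3.14 ± 5.34 CPM). Homer2 rested on the central pools of mice 1 and 2, with 158 and 91 counts against 0 to 3 in the other central pools, and DESeq2 gave it no adjusted p without either of them. Dlg2 stayed called in 2 of 12 fits with 1 library left out, with a DESeq2 adjusted p of up to 0.0546. Lynx1, a modulator of nicotinic receptors, was higher in ctrl periphery than in ctrl center by DESeq2 (5.82 ± 5.15 against 0.0415 ± 0.0692 CPM), where all 6 central libraries were at or under 3 counts and the peripheral ones held 182, 110, 29, 148 and 1 counts in mice 1, 2, 4, 5 and 7. The adhesion protein gene Nlgn1 was 18.3 ± 9.74 CPM in GFP+, 39.5 ± 13.7 in ctrl periphery and 95.9 ± 98.8 in ctrl center, with an edgeR adjusted p of 0.0983 between GFP+ and ctrl center. The central pool of mouse 5 held 289 CPM, and without it the central mean was 57.3 ± 32.0 CPM and the edgeR adjusted p 0.512.

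Of 42 transmitter transporters and enzymes, 12, 16 and 13 were tested by edgeR and 24, 23 and 19 by DESeq2, and 0 were called by either tool (1, 2 and 2 at an unadjusted p under 0.05 by edgeR). The glutamate transporter gene Slc1a1 (864 ± 224, 689 ± 141 and 755 ± 215 CPM in GFP+, ctrl periphery and ctrl center), the glutamine synthetase gene Glul (667 ± 65.8, 622 ± 126 and 557 ± 101 CPM) and the GABA transporter gene Slc6a13 (524 ± 123, 506 ± 320 and 602 ± 310 CPM) were high in all groups.

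Of 37 G protein signalling genes, 16, 21 and 20 were tested by edgeR and 22, 24 and 23 by DESeq2, and 0 were called by either tool (2, 2 and 0 at an unadjusted p under 0.05 by edgeR). Gnas, the stimulatory G protein subunit, was level at 964 ± 191, 946 ± 71.5 and 928 ± 191 CPM in GFP+, ctrl periphery and ctrl center. Rgs9, a brake on G protein signals, was 173 ± 42.7 CPM in GFP+ and 90.5 ± 14.7 in ctrl center (log2 fold change 0.85 ± 0.29, edgeR adjusted p = 0.389), and the inhibitory subunit gene Gnao1 was 129 ± 45.1 CPM in GFP+ and 232 ± 99.7 in ctrl periphery (log2 fold change -0.83 ± 0.30, edgeR adjusted p = 0.703).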

How the data were processed

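Receptor genes were read from the table of 17 SMART-Seq libraries of hand-picked RPE cells. The authors deposited read counts per gene, not normalised. Per the labels they used fastp and Salmon on the build GRCm38.p6 (tool versions and the strand setting are not given in the sources used here), and the study's methods state 50-base single-end reads and DESeq2. All sample columns were used. Groups came from the labels. The members and gene lists were chosen with earlier results of these data known.

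Counts were tested over all genes with edgeR 4.0.16 in R 4.3.3 (filterByExpr, TMM, quasi-likelihood test, only the libraries of both groups compared), with Benjamini-Hochberg adjustment over all genes tested and a call where the adjusted p was below 0.01 and the log2 fold change exceeded 1 in either direction. DESeq2 1.42.0 was the alternative test. The scripts were tested on simulated counts with known changes. CPM were scaled by TMM over all libraries, and lengths were exon bases of GENCODE M21 (GRCm38). A gene was taken as detected above 3 counts. Totals of 9896118 to 22467079 counts and their TMM scaling set the CPM of this floor, which covers counting error only. Permutation tests on single genes were exact and two-sided, adjusted over all genes tested.

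Genes were named when edgeR tested them in a comparison, when they had the highest mean CPM of their transmitter, when their adjusted p was under 0.05 by either tool, or when their group ranges did not overlap with a mean count of at least 10 in the higher group. In the lists, up to 4 genes with the highest mean CPM were named, with the genes DESeq2 called. Other genes were named after their values were seen. Some genes are not reported here, though the counts and sums include them.

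Libraries with the same number came from the same mouse label, so the mouse pairs them, and it was fitted as a replicate block in an alternative. Deviations of paired libraries correlated between -0.0159 and 0.104. Pools of 1 mouse are not independent animals in the unblocked tests. Other alternatives were RLE size factors, other filters, all 3 groups in the fit, the run of animal numbers as covariate, an adjusted p of 0.05 without a fold limit, and each library left out in turn.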

Additional observations from a re-analysis of the deposited data

Results flagged for a closer look

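In 16 of 68 groups of 4 to 10 libraries (23.5%), 1 library lay apart from the rest by Dixon's criterion, always the highest. This share is not set against a chance rate, because CPM of sparse genes are skewed and the sums repeat their own members. The criterion divides the gap to the nearest library by the range of the group. No cause was tested.

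In GFP+, the pool of mouse 5 lay apart for Gria3 (0.807, 732 counts), Grik1 (0.712, 73 counts), Htr2b (1, 100 counts), the glutamate sum (0.738, 70.3 CPM) and the serotonin sum (0.989, 7.04 CPM). The GFP+ pool of mouse 7 lay apart for Gabra5 (0.838, 155 counts) and that of mouse 3 for Chrna1 (0.638, 160 counts). In ctrl periphery, the pool of mouse 5 lay apart for Gabra2 (0.889, 644 counts) and Grin2b (0.979, 55 counts).

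In ctrl center, the pool of mouse 7 lay apart for Chrnb4 (0.841, 860 counts), Chrm3 (0.776, 35 counts) and the acetylcholine sum (0.651, 101 CPM). The central pool of mouse 5 lay apart for Gabra5 (0.657, 13 counts), that of mouse 4 for Grik1 (0.740, 1108 counts), that of mouse 6 for Chrnb2 (0.790, 196 counts) and that of mouse 1 for Htr2b (1, 10 counts).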

How the results depend on the processing

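No receptor gene was called by edgeR in any comparison under any edgeR alternative run, the mouse as replicate block included (0 called in each comparison). DESeq2 called 3 in GFP+ against ctrl center, and 0 to 6 with 1 library left out, a check chosen after seeing the data, as were the same fits for Dlg2 and Homer2 and that of Nlgn1 without the central pool of mouse 5. With the block, the median log2 fold change of all genes was 0.57 (GFP+ against ctrl center), 0.07 (GFP+ against ctrl periphery) and 0.49 (ctrl periphery against ctrl center). Without it the medians were 0.0007, 0.01 and 0.009, so blocked values are relative to that shift.

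Some directions reversed, none of them of a called difference. With the block, Chrna1 went to -0.58 (GFP+ against ctrl center) and -0.089 (GFP+ against ctrl periphery), and between ctrl periphery and ctrl center Adra2c went to 0.36, Gabra4 to 0.063 and Gria3 to 0.66. With the run of animal numbers, Chrna1 went to -0.082 (GFP+ against ctrl center), Chrnb2 to -0.086 and Gabra5 to -0.053 (both ctrl periphery against ctrl center). There Gabra5 was -0.063 by DESeq2, -0.10 with RLE and -0.048 with all 3 groups. The cause was not tested.

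With 1 library left out, log2 fold changes of GFP+ against ctrl center ranged from -0.57 to 0.50 for Chrna1, from -0.45 to 1.73 for Chrnb2 and from -0.52 to 0.21 for Gabra4. Against ctrl periphery they ranged from -0.55 to 0.62 for Chrnb2, from -0.36 to 0.21 for Gabra4, from -0.53 to 1.80 for Gabra5 and from -0.37 to 0.19 for Gabrb1. Between ctrl periphery and ctrl center they ranged from -0.26 to 0.15 for Adra2c, from -0.47 to 1.63 for Chrnb2, from -0.052 to 1.88 for Chrnb4, from -1.72 to 0.054 for Gabra2, from -0.42 to 0.34 for Gabra4, from -0.53 to 0.32 for Gabra5 and from -0.90 to 0.10 for Gria3.

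Without its highest member, the GABA sum was 89.4 CPM in GFP+, 109 in ctrl periphery and 85.3 in ctrl center, the acetylcholine sum 11.3, 14.6 and 11.6, and the catecholamine sum 0.757, 4.30 and 2.40. Depth limits the sparse genes: 39 of 86 never passed 3 counts.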
